A study of Mus musculus with 27 samples.

Results

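The comparison set 3 arrays of 3T3-L1 cells taken 48 h after the start of differentiation, in which the LIM-homeobox factor Isl1 gave a low signal, against 3 arrays of vector cells taken at 0 h. The 48 h arrays were chosen by a readout: those with a log2 Isl1 signal under 9. They are 3 of the 6 arrays at 48 h and 3 of the 27 arrays of the series, and all 3 carry an ISL1 title, against their signal. 3T3-L1 cells are cultured mouse fibroblasts that can be induced to become fat cells. In the series these cells carried either the empty pMIG vector or Flag-tagged ISL1 in it. RNA was measured on Affymetrix gene arrays at 0, 0.5, 1, 2, 4, 8 and 48 h in 9 groups of 3 arrays, 7 labelled vector and 2 labelled ISL1.

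All cells were kept for 2 days past confluence and then given a medium with 10% serum, 350 nM insulin, 0.5 mM of the phosphodiesterase inhibitor IBMX, 250 nM dexamethasone (a synthetic glucocorticoid) and 400 nM biotin. The 0 h cells were harvested just before that medium was added. By their labels the low-Isl1 arrays at 48 h are Flag-ISL1 cells, so the comparison as labelled sets ISL1 cells at 48 h against vector cells at 0 h, and construct and time differ together. If the titles of the 2 sets of 48 h arrays were exchanged, both sides would be vector cells and the comparison would read as 48 h of differentiation without ISL1. The titles cannot be settled from the files, so the arrays are called low-Isl1 and high-Isl1 cells at 48 h here.

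Conversion of fibroblast-like preadipocytes into fat cells runs through a relay of transcription factors. C/EBPβ and C/EBPδ rise early after the hormonal medium is added, the cells re-enter the cell cycle, and C/EBPα and PPARγ then switch on the genes of fat storage. The actin stress fibres and fibrous matrix of the fibroblast are taken down on the way. ISL1, a LIM-homeodomain transcription factor best known from heart, motor neuron and pancreatic islet development, was over-expressed in this line.

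Isl1 chose the arrays, so its levels are a description with no test. On the log2 scale of the deposited values it stood at 7.48, 8.01 and 7.47 in the low-Isl1 arrays at 48 h. In the vector arrays at 0 h it stood at 7.37, 7.47 and 7.17. In the other 3 arrays at 48 h, titled vector, it stood at 12.79, 12.76 and 12.72. The limit of 9 therefore fell between 8.01 just inside and 12.72 just outside. The ISL1 arrays at 0 h gave 12.64, 12.62 and 12.61, next to the high-Isl1 arrays at 48 h, and the highest of the vector arrays at the other times was 8.65, at 2 h.

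**Figure D1:**
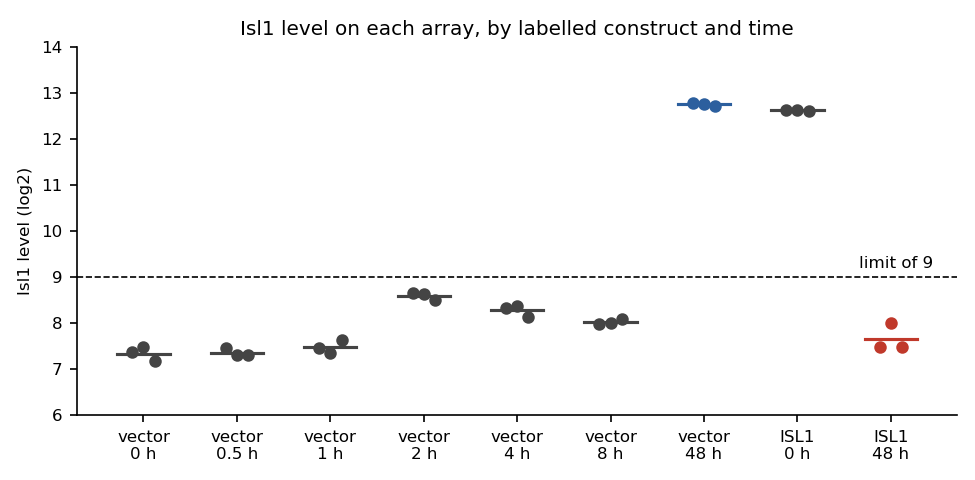
Log2 Isl1 signal of each of the 27 arrays, by labelled group, with a bar at each group's mean and the limit of 9 drawn as a line. The 3 arrays titled ISL1 at 48 h lie between 7.47 and 8.01, beside the vector arrays, and the 3 titled vector at 48 h lie between 12.72 and 12.79, beside the ISL1 arrays at 0 h.

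The levels of other genes are set beside the titles as a description without a test. Of these genes, 3 were picked after their values were seen, so they do not stand for all genes. Rab3ip, an exchange factor for Rab GTPases, read 11.97, 11.94 and 11.96 in the low-Isl1 cells at 48 h and 12.30, 12.30 and 12.23 in vector cells at 0 h. It read 9.36, 9.21 and 9.51 in the high-Isl1 cells at 48 h and 9.84, 9.73 and 9.56 in the ISL1 cells at 0 h. The low-Isl1 cells at 48 h lay closest to the vector cells at 0 h, and the high-Isl1 cells to the ISL1 cells at 0 h. Grb10, an adaptor that damps insulin signalling, read 11.18, 11.07 and 11.10 in the low-Isl1 cells at 48 h against 6.96, 7.10 and 7.27 in the high-Isl1 cells. Vector cells at 0 h gave 11.56, 11.51 and 11.41 for Grb10, and ISL1 cells at 0 h gave 7.25, 7.34 and 7.23. The imprinted growth factor Igf2 lay at 12.25, 12.19 and 12.26 in the low-Isl1 cells at 48 h and at 8.07, 8.28 and 8.52 in the high-Isl1 cells, with 12.91, 12.78 and 12.74 in vector cells and 9.01, 8.92 and 9.12 in ISL1 cells at 0 h. Trim30a, an interferon-induced protein also picked after its values were seen, read differently. Its means were 8.48 in the low-Isl1 cells and 10.85 in the high-Isl1 cells at 48 h, with 10.58 in vector cells at 0 h. For this gene the high-Isl1 cells lay closer to the vector cells at 0 h. Its level in ISL1 cells at 0 h is not set beside these, so this gene cannot place the arrays between the 2 starts. Its bearing on the titles was not tested. The 31 listed interferon-induced genes had a median difference of 0.59 in ISL1 cells from vector cells at 0 h. Lyz2, the deepest fall described below, had means of 7.57 in low-Isl1 and 6.76 in high-Isl1 cells at 48 h. At 0 h it stood at 12.05 in vector and 7.21 in ISL1 cells, so both sets at 48 h lay closer to the ISL1 cells.

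Of 19938 genes tested, 8248 (41.4%) differed between low-Isl1 cells at 48 h and vector cells at 0 h (limma, Benjamini-Hochberg adjusted p below 0.05). Of these, 4251 (21.3%) were higher and 3997 (20%) were lower at 48 h. With a change of at least 2-fold as well, 496 (2.49%) were higher and 753 (3.78%) lower. The median log2 difference over all genes was 0.06. For the high-Isl1 cells at 48 h against the same vector arrays, 7342 genes (36.8%) passed, 18.1% higher and 18.7% lower, and 2.14% and 2.85% by at least 2-fold. Between the low- and high-Isl1 cells at 48 h, 5553 (27.9%) differed, 14% higher and 13.8% lower in the low-Isl1 cells, and 0.898% and 1.2% by at least 2-fold. The 3 arrays of one group lay wholly above or below the 3 of the other for 48.8% of genes in the low-Isl1 comparison with 0 h (26.8% above, 22% below), so a lack of overlap alone is common here. The first 2 comparisons share their control arrays, so their values are given side by side without a measure of likeness. Biological triplicates are named in the design text without saying what separates them. The p-values measure only the spread between arrays within groups, pooled over all 9 groups of the fit. GEO numbered the records of the 0 h arrays, of the 48 h arrays and of the other times in separate runs, and no label gives a scan or extraction batch. An effect shared by such a run cannot be told apart from time, while the low- and high-Isl1 cells at 48 h lie in the same run. As labelled, the ISL1 cells at 0 h are the matching start for the low-Isl1 arrays. Set against them without a test, the low-Isl1 arrays at 48 h lay wholly above for 28.9% of genes and wholly below for 25.4%, with a median difference of 0.07. Counts and differences below are against vector cells at 0 h unless another group is named. Some of them change direction from the ISL1 cells at 0 h. List counts are to be read against the 21.3% of all genes called higher and the 20% called lower.

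Genes of secreted and surface proteins were among the largest rises. Lcn2, the siderophore-binding lipocalin 2, read 8.14, 7.96 and 7.65 in vector cells at 0 h and 13.29, 13.33 and 13.50 in low-Isl1 cells at 48 h. The groups lay far apart, and the log2 difference of 5.46 ± 0.094 (44.0-fold, n = 3 and 3) was the largest rise. Here and below, ± gives the SE from the fit of all 27 arrays. Mc5r, a melanocortin receptor coupled to cAMP, went from 6.41, 6.57 and 6.56 to 11.58, 11.60 and 11.77, a difference of 5.13. Cxcl13, a B-cell chemokine, went from 6.71, 6.67 and 6.69 to 11.48, 11.46 and 11.53 (4.80). The protease inhibitor Serpina3n rose from 7.67, 7.51 and 7.76 to 12.19, 12.23 and 12.39 (4.62), and the lubricin gene Prg4 from 6.84, 6.75 and 6.42 to 11.20, 11.22 and 11.21 (4.55). None of these groups overlapped. Prg4 was higher still in the high-Isl1 cells (a difference of 6.77 from vector cells at 0 h), as was Cxcl13 (5.60), while Mc5r (4.35) and Serpina3n (3.60) differed less there. Pip, a secreted prolactin-induced protein, rose unevenly: 9.57, 8.72 and 9.71 at 48 h against 5.22, 5.30 and 4.99, with the second array lowest. Further large rises were in Cd33 (4.40), a sialic-acid-binding lectin, Ceacam1 (4.39), an adhesion molecule, Ang5 (3.90), a ribonuclease of the angiogenin family, Fosl1 (3.32), an AP-1 factor, and Retnla (3.30), a resistin-like secreted protein.

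Among the deepest falls were genes of matrix, contraction and innate defence. Lyz2, lysozyme, read 12.10, 12.03 and 12.03 at 0 h and 7.61, 7.44 and 7.65 in the low-Isl1 cells at 48 h, a log2 difference of -4.49 ± 0.087 (22.4-fold lower). In the ISL1 cells at 0 h it stood at a mean of 7.21, so against the 0 h arrays of the same label the low-Isl1 cells differed by 0.36 and showed no fall. Timp3, an inhibitor of matrix metalloproteinases, went from 13.36, 13.34 and 13.29 to 8.97, 8.72 and 9.15 (-4.38). Myl9, a regulatory myosin light chain, went from 12.16, 12.14 and 11.98 to 8.19, 8.23 and 8.18 (-3.89). In Lyz2, Timp3 and Myl9 the groups stood more than 3 log2 units apart. Bmp4, the bone morphogenetic protein that commits precursors to the fat lineage, fell from 11.83, 11.77 and 11.73 to 7.55, 7.86 and 7.71, which is -4.07 ± 0.10 (16.8-fold lower, limma adjusted p = 6.48e-21). The high-Isl1 cells at 48 h lay at -4.30 from the same vector arrays, and the 2 sets at 48 h were not told apart for Bmp4 (difference 0.23, limma adjusted p = 0.11). Sorbs2, an actin-associated adaptor, differed by -4.47, Ifit3, an interferon-induced protein, by -3.85, the adhesion receptor Adgrg6 by -3.67, the microfibril protein Mfap5 by -3.59 and the protocadherin Pcdh18 by -3.53. Of the 30 genes with the largest changes, 15 in each direction, 22 differed between low- and high-Isl1 cells at 48 h. From the ISL1 cells at 0 h, all 15 of the largest rises and 14 of the largest falls still lay wholly apart in the same direction, Lyz2 being the exception, but 3 of the falls were within 1 log2 unit: Lyz2, Bmp4 (-0.52, from 8.22) and Cxcl15 (-0.94). In bulk RNA, fewer cells of a kind and less RNA per cell cannot be told apart.

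**Figure D2:**
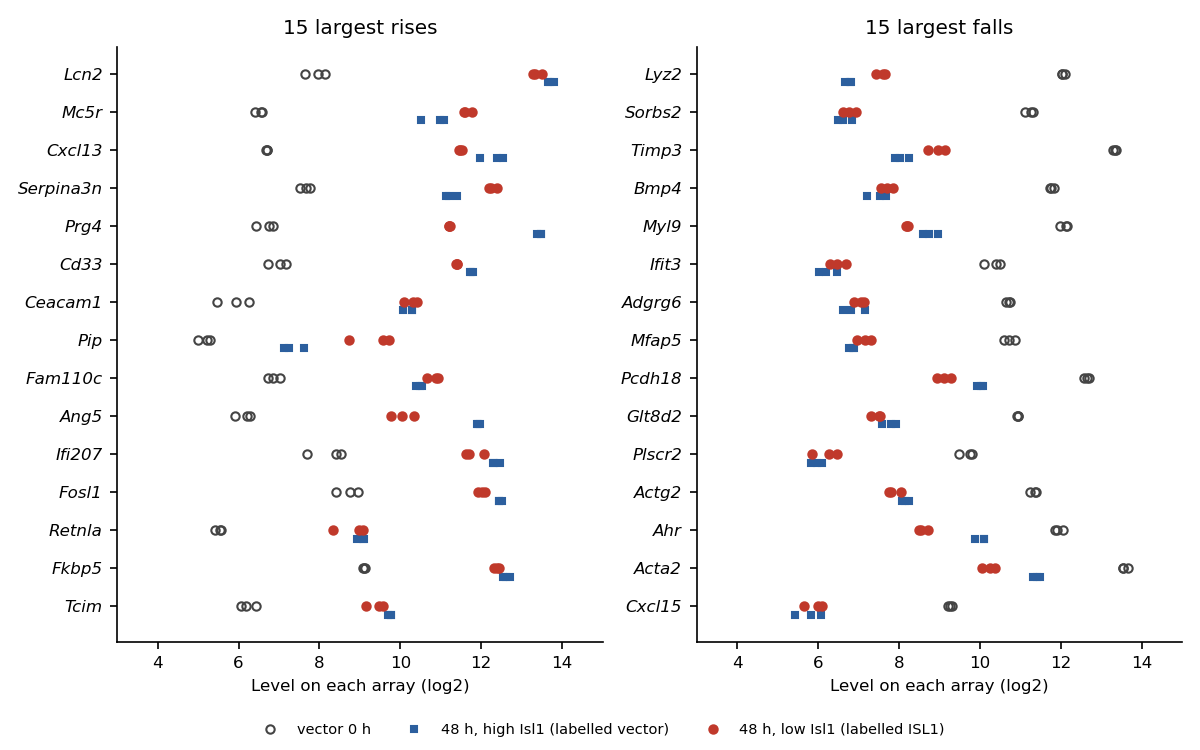
Log2 level in each array of the 15 genes with the largest rise and the 15 with the largest fall, in vector cells at 0 h, low-Isl1 cells at 48 h and high-Isl1 cells at 48 h. Lcn2 lies at 7.65 to 8.14 at 0 h and 13.29 to 13.50 in low-Isl1 cells, and Lyz2 at 12.03 to 12.10 and 7.44 to 7.65.

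Most of the fat-cell genes listed rose, though not all of them. Of 27 transcription factors of adipogenesis, 16 were higher and 5 lower, with a median difference of 0.51 beside 0.06 for all genes. Cebpa, which encodes C/EBPα, a driver of the late fat-cell programme, read 9.20, 9.10 and 9.06 at 0 h and 11.32, 10.98 and 11.35 in low-Isl1 cells at 48 h. The groups did not overlap, and the difference was 2.09 ± 0.10 (4.27-fold, limma adjusted p = 2.68e-15). High-Isl1 cells at 48 h differed from the 0 h arrays by 0.11 (limma adjusted p = 0.447), and the low-Isl1 cells were 1.98 above them (limma adjusted p = 2.87e-14). Pparg, the nuclear receptor that governs fat-cell identity, went from 11.86, 11.72 and 11.75 to 13.10, 13.07 and 13.02. This was a rise of 1.29 ± 0.060, against 0.83 in the high-Isl1 cells. Cebpb, the early C/EBP factor, went from 9.27, 9.18 and 8.95 to 11.15, 11.01 and 11.19 (1.98 ± 0.086). It rose by 2.11 in the high-Isl1 cells, and the 2 sets at 48 h differed by -0.12 for it (limma adjusted p = 0.347). Cebpd rose by 0.87, the lipogenic factor Srebf1 by 1.17, the Krüppel-like factor Klf5 by 2.35, the zinc-finger factors Egr2 and Zbtb16 by 2.36 and 3.02, and the coactivator Ppargc1b by 1.42. Klf6 differed by -1.34.

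The earlier times of the vector cells give each gene's course, as group means without a test. Cebpb stood at 9.13 at 0 h, 10.68 at 0.5 h and 11.92 at 2 h, and its level of 11.15 at 8 h lay beside the 11.12 of the low-Isl1 cells at 48 h. Cebpa lay between 8.67 and 9.12 from 0 to 8 h and at 11.22 in the low-Isl1 cells at 48 h. Bmp4 had reached 9.73 at 2 h, 8.23 at 4 h and 7.71 at 8 h, its level in the low-Isl1 cells at 48 h as well. Lcn2 was at 10.85 at 2 h and 13.14 at 8 h, and the glucocorticoid-induced cochaperone Fkbp5 at 12.63 at 2 h. By contrast, Mc5r was at 7.01 and Cxcl13 at 7.35 at 8 h, Timp3 at 12.87 and the smooth muscle actin gene Acta2 at 13.17, while their levels in the low-Isl1 cells at 48 h were 11.65, 11.49, 8.95 and 10.23.

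**Figure D3:**
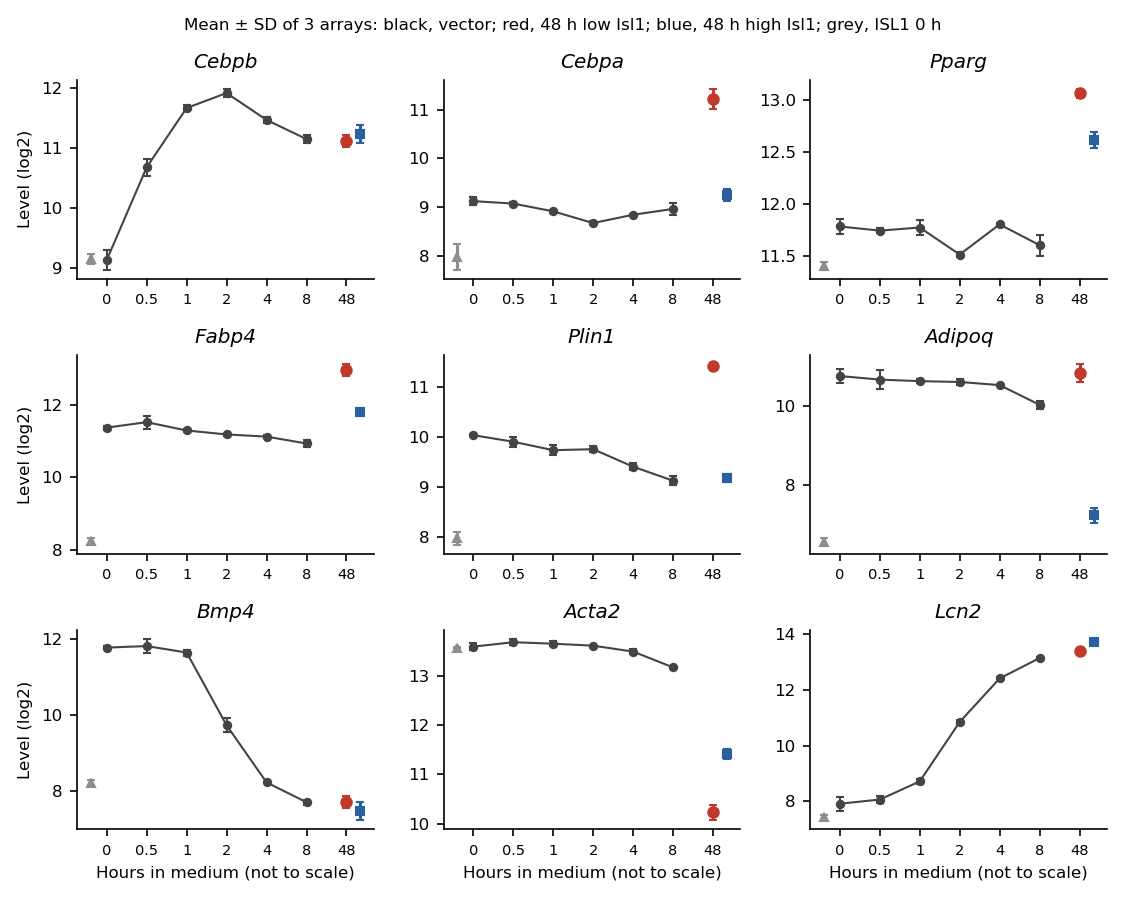
Group mean log2 level (with SD, n = 3) of 9 genes against hours in medium, not to scale, in vector cells from 0 to 8 h, low- and high-Isl1 cells at 48 h and ISL1 cells at 0 h. Bmp4 is at 7.71 both at 8 h and in low-Isl1 cells at 48 h, and Cebpa is at 8.96 at 8 h and 11.22 in low-Isl1 cells at 48 h.

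Of 33 markers of the mature fat cell, 24 were higher and 2 lower, with a median of 0.97. The same 33 in the high-Isl1 cells gave 12 higher and 11 lower and a median of -0.04, and 26 of the 33 were higher in low- than in high-Isl1 cells and none lower (limma; the arrays of the 2 sets lay apart in that direction for 0 genes). From the ISL1 cells at 0 h, 32 of the 33 lay wholly above in the low-Isl1 arrays, with a median of 2.11. Fabp4, the fatty-acid carrier of fat cells, went from 11.40, 11.42 and 11.32 to 12.78, 13.06 and 13.06, a rise of 1.59 ± 0.085. Plin1, which coats the lipid droplet, went from 10.05, 10.02 and 10.02 to 11.40, 11.37 and 11.45, a rise of 1.38 ± 0.073. The groups did not overlap for either gene. In the high-Isl1 cells the differences were 0.44 for Fabp4 and -0.85 for Plin1. Cidec, a protein of droplet fusion, went from 10.41, 10.21 and 10.17 to 12.47, 12.29 and 12.50. It rose by 2.16 where the high-Isl1 cells lay at -0.68. The fatty-acid transporter Cd36 rose from 9.21, 9.15 and 9.14 to 10.42, 10.37 and 10.62 (1.30). The insulin-responsive glucose transporter Slc2a4 rose by 0.89 and lipoprotein lipase, Lpl, by 0.33. The adipsin gene Cfd had no probe set of its own in the gene table and was not analysed here.

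For adiponectin no change from vector cells at 0 h was detected. Adipoq read 10.94, 10.73 and 10.60 in those cells and 10.95, 10.59 and 10.98 at 48 h in the low-Isl1 cells, so the groups overlapped (0.08 ± 0.11, limma adjusted p = 0.601). In the ISL1 cells at 0 h, the start of the same label, it ranged only from 6.47 to 6.62. The low-Isl1 arrays lay wholly above that, so the reading depends on which 0 h cells are the start. From the vector arrays at 0 h, the high-Isl1 cells lay at -3.53, which put the low-Isl1 cells 3.61 above them. The leptin gene Lep also missed the threshold (0.14, limma adjusted p = 0.329). The glycerol channel Aqp7 differed by -1.25 from vector cells at 0 h and the carbonic anhydrase Car3 by -0.78. In the ISL1 cells at 0 h their means were 7.03 and 6.96, below the 8.04 and 10.07 of the low-Isl1 cells. For these 2 genes too the direction depends on the start.

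Several enzymes of triglyceride assembly rose. Of 30 genes of fatty-acid and triglyceride synthesis, 15 were higher and 6 lower, with a median of 0.13. Dgat2, which adds the last fatty acid, read 10.01, 9.92 and 9.80 at 0 h and 12.78, 12.64 and 12.78 at 48 h, a rise of 2.82 ± 0.12 (7.06-fold). Gpat3, which starts the pathway, went from 9.05, 8.60 and 8.71 to 11.99, 11.86 and 11.95, a rise of 3.15 ± 0.12. Every low-Isl1 array lay above the 0 h arrays for both enzymes. In high-Isl1 cells Dgat2 lay at -0.42 and Gpat3 at 0.32. Agpat2 (1.90), the phosphatidate phosphatase Lpin1 (2.39) and Dgat1 (2.01) rose as well. Fatty-acid synthase, Fasn, rose by 0.90, and the desaturases Fads2 and Fads1 differed by -1.61 and -1.01. Of the enzymes that release fat, the hormone-sensitive lipase Lipe rose by 2.34. Of 20 genes of cholesterol synthesis, 4 were higher and 8 lower (median -0.11), among them Fdft1, squalene synthase, at -1.06.

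Nuclear receptors such as PPARγ bind sites built on the letters AGGTCA. The promoter of Cd36, a known PPARγ target, is shown. It was taken from the fat-cell markers whose promoter holds these letters, so the match was fixed in advance. The window is from RefSeq on GRCm38.p6, chr5:17836047-17836146 on the minus strand, bases -250 to -151 from a transcription start. Capitals mark AGGTCA read on the opposite strand.
Cd36: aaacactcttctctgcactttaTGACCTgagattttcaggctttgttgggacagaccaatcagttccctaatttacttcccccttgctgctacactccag
On either strand, AGGTCA was in the 250 bases before a start in 5 of the 21 fat-cell markers with a RefSeq promoter (23.8%) and in 14.3% of the 15563 measured genes with one. Such a match is a run of letters, not a measured binding site.

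Many preadipocyte genes fell. Of 29 preadipocyte genes, 19 were lower and 6 higher (median -0.56). Dlk1, the surface factor Pref-1 that holds preadipocytes undifferentiated, read 14.31, 14.30 and 14.31 at 0 h and 13.69, 13.80 and 13.72 at 48 h, a difference of -0.57 without overlap. The platelet-derived growth factor receptor Pdgfrb lay at -2.14, Gata2, a factor that opposes fat-cell formation, at -2.08, and the zinc-finger protein Zfp521 at -1.66. Cd24a, a surface protein of fat progenitors, rose by 2.65.

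Most of the listed BMP pathway genes and TGF-β targets were lower than in vector cells at 0 h. Among 32 BMP ligands, receptors and antagonists, 20 were lower and 3 higher (median -0.31; 5 higher where each array was centred on its median). Against the ISL1 cells at 0 h, 12 of the 32 lay wholly below in the low-Isl1 arrays and 9 wholly above. The median from that start was 0.03, so the direction depends on which 0 h cells are the start. The antagonist Grem1 fell from 12.99, 12.80 and 12.69 to 11.49, 11.40 and 11.57. That is a difference of -1.34, against -0.08 in the high-Isl1 cells. Of the antagonists, follistatin, Fst, differed by -1.08, Chrdl1 by -0.99, noggin, Nog, by 0.40 and Bmper by 0.91. Chrdl1 had a mean of 7.54 in the ISL1 cells at 0 h, below the 10.35 of the low-Isl1 cells. Of 17 BMP targets, 4 were higher and 7 lower, beside 21.3% higher and 20% lower over all genes. The Id genes, inhibitors of basic helix-loop-helix factors, split. Id2 read 12.35, 12.45 and 12.36 at 0 h and 10.52, 10.20 and 10.53 in low-Isl1 cells at 48 h, a difference of -1.97 ± 0.071 with no overlap. High-Isl1 cells lay at 0.04 from the 0 h level of Id2. Id3 differed by -1.69 and Id4 by -1.40, while Id1 rose by 0.41. The inhibitory factor Smad6 differed by -1.35 and the pseudoreceptor Bambi by 0.91.

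Of 41 Wnt pathway genes, 15 were lower and 5 higher (median -0.03). Against the ISL1 cells at 0 h, 13 lay wholly below in the low-Isl1 arrays and 13 wholly above (median 0.06). Sfrp2, a secreted Wnt modulator, was among the deepest falls, from 13.27, 13.19 and 13.22 to 9.99, 9.85 and 10.00 (-3.28). The ligand Wnt5a differed by -2.08, the receptor Fzd1 by -1.58 and the matricellular proteins Ccn5 and Ccn4 by -2.21 and -2.12. Ccn5 had a mean of 10.21 in the ISL1 cells at 0 h, near the 9.95 of the low-Isl1 cells. The co-receptor Lrp5 rose by 1.11. Of 24 TGF-β targets and matricellular genes, 18 were lower and 4 higher (median -0.51), including the ligand Tgfb3 (-2.14) and thrombospondin 1, Thbs1 (-3.16), while the receptor Tgfbr2 rose by 0.97. Of 23 Notch pathway genes, 11 were lower and 1 higher than in vector cells at 0 h. Against the ISL1 cells at 0 h the direction turned: 9 of the 23 lay wholly above in the low-Isl1 arrays and 5 wholly below (median 0.12).

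Most contractile and fibrous genes fell. Of 34 genes of actin stress fibres and smooth muscle contraction, 30 were lower and 1 higher (median -1.03). Acta2 read 13.55, 13.67 and 13.55 at 0 h and 10.26, 10.06 and 10.37 at 48 h, a difference of -3.36 ± 0.067. The low-Isl1 cells differed from the high-Isl1 cells by -1.18 for Acta2, and 20 of the 34 genes were likewise lower in low- than in high-Isl1 cells. Tagln, transgelin, differed by -3.09, tropomyosin 1, Tpm1, by -2.74, and the gamma smooth muscle actin Actg2 by -3.46. Of 38 collagen and fibrous matrix genes, 29 were lower and 7 higher (median -0.77). Col1a1, a chain of type I collagen, went from 13.04, 12.90 and 12.96 to 11.29, 11.29 and 10.96, a difference of -1.78, and Col1a2 lay at -1.65. The small leucine-rich proteoglycans osteoglycin, Ogn, and fibromodulin, Fmod, differed by -3.18 and -2.80. Of 18 general fibroblast markers, 16 were lower and 1 higher (median -0.88). Basement membrane genes, which surround the fat cell, gave 4 higher and 5 lower of 20 (7 higher with centred arrays). Over all genes 21.3% were higher and 20% lower.

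**Figure D4:**
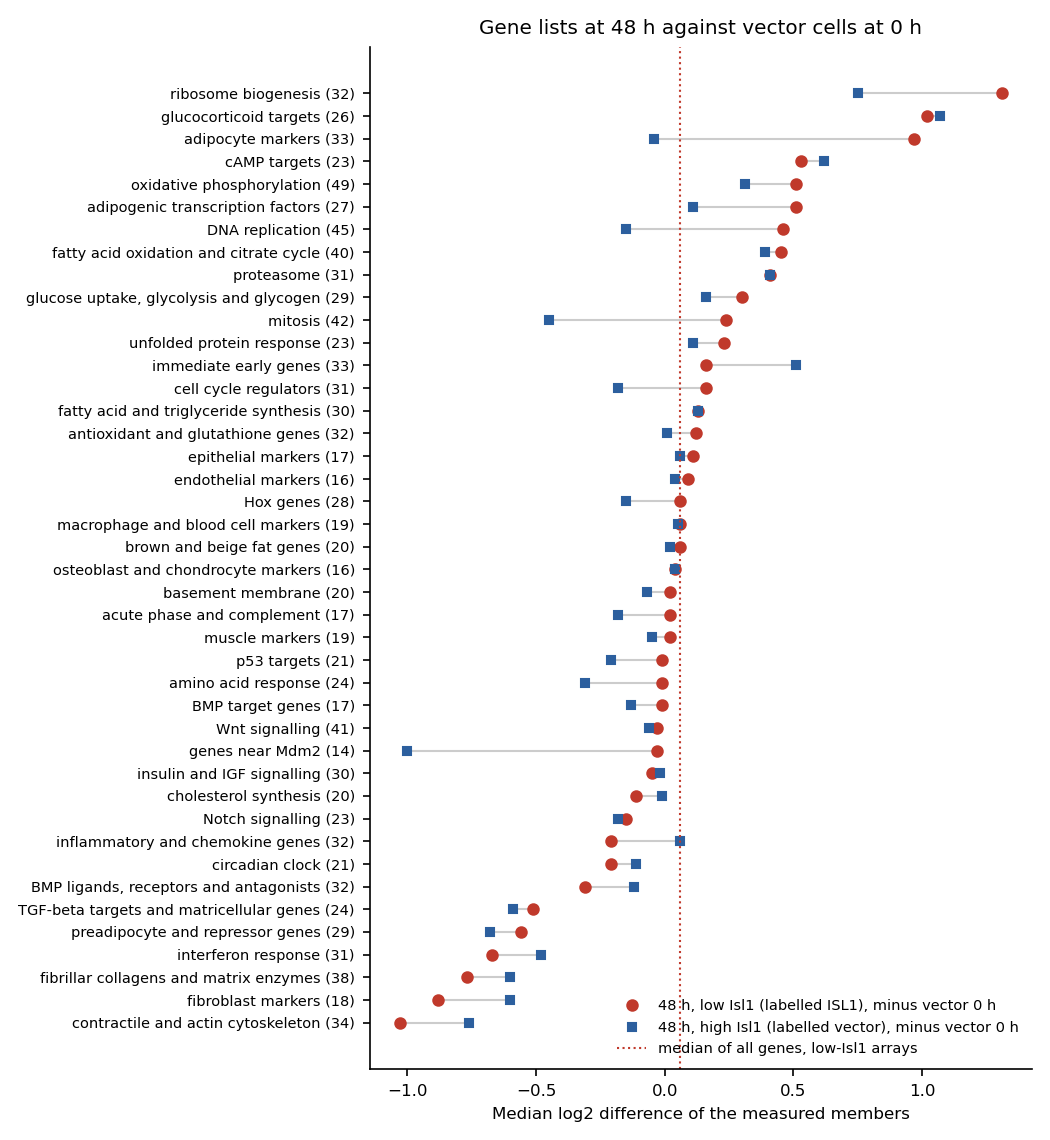
Median log2 difference from vector cells at 0 h of each gene list, for low-Isl1 (circles) and high-Isl1 cells (squares) at 48 h, with the number of genes in brackets and a dotted line at the median of all genes in low-Isl1 cells (0.06). DNA replication lies at 0.46 in low-Isl1 and -0.15 in high-Isl1 cells, and contractile genes lie at -1.03 and -0.76.

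Genes of DNA replication were higher in the low-Isl1 cells than in vector cells at 0 h and than in the high-Isl1 cells, but not than in the ISL1 cells at 0 h. Of 45 genes of DNA replication, 37 were higher and none lower (limma; 0 lower at an unadjusted p under 0.05 too), with a median of 0.46. In the high-Isl1 cells at 48 h, 4 of the 45 were higher and 20 lower (median -0.15), and 39 were higher in low- than in high-Isl1 cells. The mean level of the list ran from 10.38 to 10.55 in the low-Isl1 arrays, from 9.90 to 10.05 in vector cells at 0 h and from 10.77 to 10.78 in ISL1 cells at 0 h. From these last, 28 of the 45 genes lay wholly below in the low-Isl1 arrays and 6 wholly above (median -0.30), so the direction depends on which 0 h cells are the start. Rrm2, the regulated subunit of ribonucleotide reductase, went from 10.86, 10.86 and 10.73 to 12.05, 11.94 and 12.09 (1.21 ± 0.075). The high-Isl1 cells lay at -0.47 for it. Cdc6, which loads the replicative helicase, went from 7.97, 8.21 and 8.01 to 9.31, 8.96 and 8.94 (1.00 ± 0.13), and the helicase subunit Mcm7 from 11.05, 11.12 and 10.81 to 11.98, 11.92 and 11.83 (0.92). Groups did not overlap for these genes. Mcm5 rose by 0.72, Mcm6 by 0.60, the origin recognition subunit Orc1 by 1.15 and the helicase activator Cdc45 by 1.14.

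Replication genes are known to be switched on through E2F factors. For 3 of those that rose, RefSeq promoter windows on GRCm38.p6 hold an E2F site in the letters TTTCCCGC or TTTGGCGC, searched on both strands. They were taken from the genes whose promoter holds such letters, so the matches were fixed in advance. A match is a run of letters, not a measured binding site. Capitals mark the matches. Cdc6 is shown at chr11:98907951-98908050 (plus strand, -200 to -101 from the start), Mcm7 at chr5:138172011-138172110 (minus strand, -227 to -128) and Mcm6, which holds a pair of matches, at chr1:128359715-128359845 (minus strand, -140 to -10).
Cdc6: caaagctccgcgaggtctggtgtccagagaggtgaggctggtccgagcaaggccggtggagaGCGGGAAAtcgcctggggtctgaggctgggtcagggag
Mcm7: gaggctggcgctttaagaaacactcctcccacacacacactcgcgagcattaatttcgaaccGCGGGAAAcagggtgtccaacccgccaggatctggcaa
Mcm6: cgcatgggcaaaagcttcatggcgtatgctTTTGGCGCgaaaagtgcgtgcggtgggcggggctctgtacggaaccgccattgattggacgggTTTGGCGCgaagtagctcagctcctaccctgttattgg
Either site was in the 250 bases before a start in 6 of 38 DNA replication genes with a promoter (15.8%) and in 331 of all 15563 (2.13%).

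Of 42 genes of mitosis, 21 were higher and 6 lower than in vector cells at 0 h (median 0.24). From the ISL1 cells at 0 h the direction turned: 41 of the 42 lay wholly below in the low-Isl1 arrays, with a median of -1.05. The mean level of the list ran from 10.07 to 10.26 in the low-Isl1 arrays, from 9.94 to 10.11 in vector cells at 0 h and from 11.22 to 11.25 in ISL1 cells at 0 h. The lower count was 3 without the first vector array at 0 h, and 3 with each array centred on its median. In the high-Isl1 cells 33 of the 42 were lower and 1 higher, and 40 were higher in low- than in high-Isl1 cells. Top2a, the topoisomerase that untangles chromosomes, rose by 0.73, and by 0.68 in the high-Isl1 cells. Cdc20, an activator of the anaphase-promoting complex, rose by 0.42 where the high-Isl1 cells lay at -0.59, Aurka, a spindle kinase, rose by 0.65, and Kif23, a motor of cell division, differed by -0.94. Mki67, which encodes the proliferation antigen Ki-67, differed by -0.25. CHR elements, TTTGAA, and CCAAT boxes are known from promoters of some late cell cycle genes. Top2a at chr11:99024190-99024398 (minus strand, -209 to -1) and Cdc20 at chr4:118437344-118437425 (minus strand, -82 to -1) are shown with CHR letters on either strand in capitals. Both were taken from the genes whose promoter holds these letters, so the matches were fixed in advance.
Top2a: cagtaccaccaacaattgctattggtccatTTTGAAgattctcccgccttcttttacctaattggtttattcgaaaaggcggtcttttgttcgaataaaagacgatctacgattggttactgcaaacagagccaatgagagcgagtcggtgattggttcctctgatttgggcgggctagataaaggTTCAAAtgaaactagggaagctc
Cdc20: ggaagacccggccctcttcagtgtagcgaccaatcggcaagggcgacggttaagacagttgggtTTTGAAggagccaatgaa
TTTGAA was in 12 of 33 mitosis genes with a promoter (36.4%) against 15.7% of all, and CCAAT in 26 of the 33 (78.8%) against 38.8%.

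Of 31 regulators of the cycle, 14 were higher and 11 lower. Myc, the growth-promoting factor, stood out: 9.59, 9.64 and 9.30 at 0 h against 12.47, 12.45 and 12.55 at 48 h (2.98 ± 0.079, 7.89-fold), with 2.36 in the high-Isl1 cells. The cyclins of S-phase entry, Ccne1 and Ccne2, rose by 1.14 and 1.23, and the phosphatase Cdc25a by 1.02. The inhibitors Cdkn2b and Cdkn1b differed by -1.02 and -0.67, and the growth-arrest gene Gas2 by -2.96.

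All 32 genes listed for ribosome biogenesis were higher (limma), with a median of 1.31 beside 0.75 in the high-Isl1 cells, and 27 of them were higher in low- than in high-Isl1 cells. The RNA polymerase I subunit Polr1b read 9.94, 9.88 and 9.73 at 0 h and 11.58, 11.64 and 11.52 at 48 h, a rise of 1.74 against 0.95 in the high-Isl1 cells. Wdr12 and the helicase Ddx21, both needed to process ribosomal RNA, rose by 1.67 and 1.64. Npm1, nucleophosmin, rose least (0.28). Mitochondrial genes mostly rose: 45 of 49 genes of oxidative phosphorylation were higher and 1 lower (median 0.51). The lower gene, Ndufs4, lost its call without any 1 of the low-Isl1 arrays or the first or second vector array, which leaves 0 lower. Among the rises were the complex III subunits Uqcrfs1 (1.03) and Cyc1 (1.01). Of 40 genes of fatty-acid oxidation and the citrate cycle, 31 were higher and 4 lower (median 0.45), with Idh3a, a dehydrogenase subunit of the cycle, at 1.60 and the carnitine transferases Cpt2 and Cpt1a at 1.23 and -0.69. Of 31 proteasome genes, 28 were higher and none lower (limma; 0 lower at an unadjusted p under 0.05), at a median of 0.41 in both sets at 48 h.

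Of 29 genes of glucose uptake, glycolysis and glycogen, 17 were higher and 7 lower (median 0.30). Hexokinase 2, Hk2, which traps glucose in the cell, went from 7.98, 8.04 and 7.99 to 10.45, 10.37 and 10.22, a rise of 2.34 without overlap. Pcx, pyruvate carboxylase, rose by 2.29, and Pfkfb3, a regulator of glycolysis, by 1.51 where the high-Isl1 cells lay at 0.06. Of 30 insulin signalling genes, 8 were higher and 13 lower. Against the ISL1 cells at 0 h, 14 lay wholly above in the low-Isl1 arrays and 9 wholly below (median 0.15). The docking proteins changed in opposite directions, Irs2 by 1.79 and Irs1 by -1.77, and the adaptor Grb14 by -1.87. Of 20 brown and beige fat genes, 4 were higher and 3 lower (median 0.06). Over all genes 21.3% were higher and 20% lower, so these counts do not set the list apart. Ucp1, the uncoupling protein of brown fat, read 6.71, 6.53 and 6.37 at 0 h and 6.65, 7.05 and 6.73 at 48 h, with overlapping groups. Elovl3, a fatty-acid elongase induced in brown fat, rose by 2.13.

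Dexamethasone acts through the glucocorticoid receptor and IBMX raises cAMP, and most listed targets of each were higher at 48 h. Of 26 glucocorticoid-induced genes, 19 were higher and 2 lower (median 1.02; 1.07 in high-Isl1 cells). Fkbp5 went from 9.07, 9.13 and 9.11 to 12.44, 12.39 and 12.32, a rise of 3.28 ± 0.067. Glul, glutamine synthetase, rose by 3.12 and the phosphatase Dusp1 by 1.94. Of 23 cAMP-induced genes, 14 were higher and 2 lower (median 0.53; 0.62 in high-Isl1 cells), with the G-protein regulator Rgs2 at 2.80, the orphan receptor Nr4a1 at 2.45 and the phosphodiesterase Pde10a at 2.28. The lower count was 1 without the first or second array of either group. Of 21 clock genes, 7 were higher and 11 lower, with Dbp and Per3, outputs of the clock, at -2.73 and -2.13 and the repressor Nfil3 at 2.33.

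Of 31 listed interferon-induced genes, 20 were lower and none higher (limma, also 0 higher at an unadjusted p under 0.05), with a median of -0.67. Ifi207, named for interferon but outside the list, was among the largest rises, by 3.58, and by 4.15 in high-Isl1 cells. Ifit3 read 10.11, 10.40 and 10.51 at 0 h and 6.47, 6.68 and 6.30 at 48 h, and Ifit2 and Oasl2 differed by -2.18 and -2.17. The high-Isl1 cells had a median of -0.48 for the list. Of 32 inflammatory genes, 15 were lower and 6 higher, among them the chemokines Cxcl5 (-2.29) and Ccl2 (-2.20), the macrophage growth factor Csf1 (-2.24) and the adhesion molecule Vcam1 (-1.93). The alarmin Il33 lay at -1.59 in low-Isl1 cells and 0.09 in high-Isl1 cells. Of 17 acute phase genes, 7 were higher and 6 lower. Haptoglobin, Hp, rose by 2.42, the orosomucoid gene Orm2 by 2.53 and serum amyloid Saa3 by 2.34, the last by 4.63 in high-Isl1 cells, while the phospholipid transfer protein Pltp and the complement inhibitor Serping1 differed by -2.65 and -2.34.

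Other lists had members called in both directions, with shares to be read against the 21.3% of all genes called higher and 20% called lower. Of 33 immediate early genes, 17 were higher and 6 lower (median 0.16, against 0.51 in high-Isl1 cells; 3 lower in a fit of the 6 arrays alone), with Fosl1 among the rises. Of 23 genes of the unfolded protein response, 12 were higher and 4 lower (median 0.23), with the factor Xbp1 at 1.10. Of 24 genes of the amino acid response, 9 were higher and 7 lower (median -0.01), with Cth, a cysteine-making enzyme, at 1.85, and 18 of the 24 were higher in low- than in high-Isl1 cells. Of 32 antioxidant and glutathione genes, 12 were higher and 9 lower, with the transferases Gstt1 and Mgst3 at -2.71 and 1.56. Of 21 p53 targets, 7 were higher and 5 lower (3 lower without the second low-Isl1 array). Of 28 Hox genes, 4 were higher and 7 lower (2 higher without the first low-Isl1 array or the second vector array), with Hoxa2 at -1.13, and their median of 0.06 equals that of all genes.

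MicroRNA genes were read by probe sets on their hairpins or primary transcripts, so mature forms and the arm used were not measured. Of 272 with a RefSeq entry, 23 were higher and 45 lower, and 11 of those changed at least 2-fold, 10 lower and 1 higher. Over all genes, 21.3% were higher and 20% lower, and 2.49% and 3.78% by at least 2-fold. Each of these shares was larger than that of the microRNA genes, so the counts do not set microRNA genes apart. All names that follow were chosen after their values were seen. Mature sequences (RefSeq, GRCm38.p6) are shown for the 11, with the seed, bases 2 to 8, in capitals, since 6 of the 11 share a seed in pairs. For Mir19a and Mir19b-1, which rose by less, they are shown for the same reason.
miR-100-5p: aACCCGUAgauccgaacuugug
miR-99a-5p: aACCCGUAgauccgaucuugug
miR-130a-3p: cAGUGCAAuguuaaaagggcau
miR-301a-3p: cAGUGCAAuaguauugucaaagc
miR-199a-3p: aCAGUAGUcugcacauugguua
miR-199b-3p: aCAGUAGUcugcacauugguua
miR-181b-5p: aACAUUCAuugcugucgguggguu
miR-218-5p: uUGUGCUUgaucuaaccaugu
miR-125b-5p: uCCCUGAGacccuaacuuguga
let-7c-5p: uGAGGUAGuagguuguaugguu
miR-18a-5p: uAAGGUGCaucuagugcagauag
miR-19a-3p: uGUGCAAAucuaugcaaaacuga
miR-19b-3p: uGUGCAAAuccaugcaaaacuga

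Mir181b-1 (chr1:137966650-137966673, plus strand) fell most, from 9.48, 9.04 and 9.36 to 6.94, 6.73 and 6.53, a difference of -2.56 ± 0.19. Mir100 (-1.97) and Mir125b-1 (-1.46) lie close together on chromosome 9, at chr9:41531437-41531458 and chr9:41581940-41581961. The host transcript named for the first, Mir100hg, went from 11.49, 11.26 and 11.57 to 8.61, 8.55 and 8.51, a difference of -2.88. Mir99a (-1.04) and Mirlet7c-1 (-1.27) are neighbours too, at chr16:77598940-77598961 and chr16:77599672-77599693. Mir99a shares its seed with Mir100, and both were lower. The Mir130a and Mir301 pair, also of 1 seed, differed by -1.56 and -1.13, and the Mir199a-1 and Mir199b pair by -1.70 and -1.20. Mir218-1 differed by -1.89. Of the risers, Mir18 went from 5.77, 5.93 and 5.77 to 7.74, 7.20 and 7.66, a difference of 1.71 ± 0.20. Mir19a (0.96), Mir19b-1 (0.66) and Mir17 (0.42) lie beside it on chromosome 14 in the cluster whose host transcript, Mir17hg, rose by 0.51. Neighbours on 1 transcript are not independent of each other.

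Markers of other cell types were mostly not called. Of 19 macrophage and blood markers, 2 were higher and 3 lower (median 0.06; 1 higher without the second low-Isl1 array or the first or the third vector array), and the mean level of the list ran from 7.24 to 7.30 in the vector arrays at 0 h and from 7.02 to 7.18 in the low-Isl1 arrays. The members that passed were Lyz2 (-4.49), the monocyte receptor Cd14 (-0.46), Aif1 (-0.45), the lysosomal protein Cd68 (0.63) and the Fc receptor subunit Fcer1g (0.30). Without Lyz2, the other 18 had a mean level of 6.97 to 7.04 in vector cells at 0 h and of 6.99 to 7.17 in the low-Isl1 arrays. The pan-leukocyte gene Ptprc read 6.31, 6.29 and 6.32 at 0 h and 6.17, 6.44 and 6.23 at 48 h, and the macrophage receptor Csf1r 7.17, 7.06 and 7.05 against 7.07, 7.14 and 6.97, with overlap for both. Of 16 endothelial markers, 1 was higher and 2 lower, with 0 to 2 higher when single arrays were left out (0 without the second vector array, 2 without the third vector or the third low-Isl1 array). Of 17 epithelial markers, 3 were higher and 2 lower. The higher count was 1 without the second array of either group, and the lower count 1 without the first or the third low-Isl1 array or the first vector array. Of 19 muscle markers, none was higher and 2 were lower (limma; 0 higher at an unadjusted p under 0.05, and 1 higher with centred arrays). Of 16 bone and cartilage markers 1 was higher and 2 were lower, with 1 lower without the first or the third low-Isl1 array or the second or the third vector array. The mean level of the fat-cell markers ran from 11.00 to 11.05 in the low-Isl1 arrays, from 9.94 to 10.07 in the vector arrays at 0 h and from 9.84 to 9.93 in the high-Isl1 arrays at 48 h. That of the fibroblast markers ran from 11.00 to 11.06 in the low-Isl1 arrays against 12.06 to 12.12 at 0 h.

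The second low-Isl1 array stood a little apart. Its residuals over all genes had an SD of 0.148 against 0.102 and 0.096 for the others, and its median level was 8.07 against 7.957 and 7.951. Without it, 7682 genes passed and 571 were at least 2-fold higher. Its part in the spread of single genes such as Pip was not tested.

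A stretch of 14 genes around Mdm2, the ubiquitin ligase of p53, was also looked at, a list drawn up because earlier results of these data pointed to it. In low-Isl1 cells at 48 h, 5 were higher and 5 lower (3 higher without the third low-Isl1 array or the second vector array), with a median of -0.03. The high-Isl1 cells at 48 h had a median of -1.0 for the same genes and the ISL1 cells at 0 h one of -1.14, all against vector cells at 0 h.

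**Figure D5:**
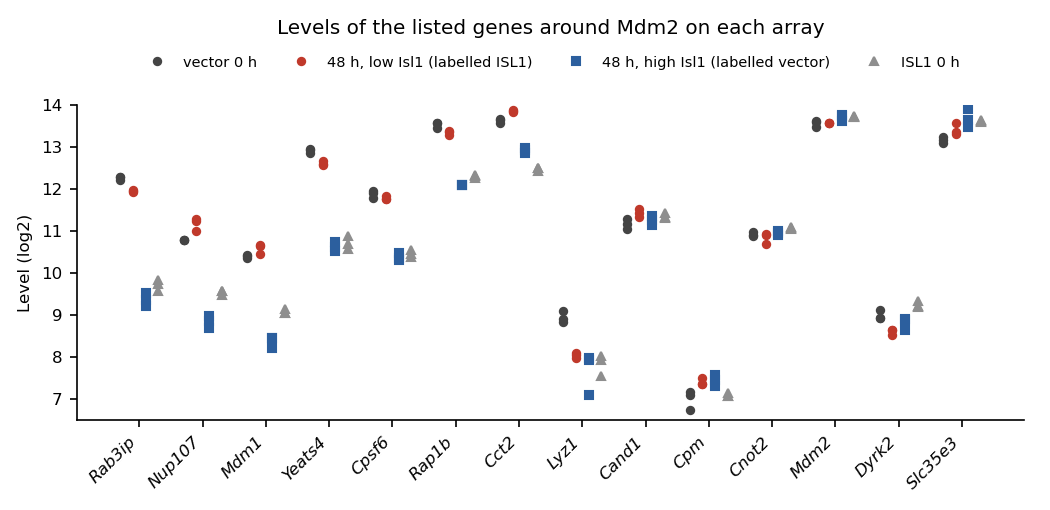
Log2 level on each array of the 14 genes near Mdm2, in vector cells at 0 h, low-Isl1 cells at 48 h, high-Isl1 cells at 48 h and ISL1 cells at 0 h (3 points a group). Rab3ip lies at 11.94 to 11.97 in low-Isl1 and 9.21 to 9.51 in high-Isl1 cells at 48 h.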

How the data were processed

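Expression was measured on Affymetrix mouse gene arrays in 27 samples. The deposited values are on a log2 scale, made by the authors with RMA, per the submitters' processing notes; for the RMA software, its release is not stated in the labels, and the log base was read from the range of the values. Of 28853 probe sets, those with 1 gene symbol in the platform's gene table were kept. Symbols were updated through Entrez IDs to RefSeq (GRCm38.p6), and the probe set with the highest mean stood for a gene, which left 19938 genes. Read depth does not apply to arrays, and the number of arrays limits the precision.

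Groups came from the sample titles. limma 3.58.1 (R 4.3.3) was fitted with 1 mean per group over all 27 arrays, with Benjamini-Hochberg adjustment over all genes at 0.05 and a 2-fold count beside it. The code was tested on simulated data with known changes. Named genes are Isl1, Bmp4 and 15 fat-cell genes, the 15 largest rises and falls whose arrays did not overlap, and in each list the 6 largest changes and the 2 largest against its majority; Cdc20, Cdkn1b, Csf1r, Grb10, Igf2, Mcm5, Mcm6, Mki67, Npm1, Ptprc, Saa3, Ucp1 and the microRNA genes were chosen after their values were seen. Members and lists were chosen with earlier results of these data known. Gene lists are described by counts and medians, with no test of a list. Alternatives were a fit of 6 arrays, a replicate block, other centring, quantile normalization, a filter on low values, the mean of probe sets, a trended robust fit, array weights, a stricter threshold, leaving out each array and, chosen with the labels in doubt, the high-Isl1 arrays in place of the low-Isl1 arrays.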

Additional observations from a re-analysis of the deposited data

Results flagged for a closer look

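Taken by their titles, the vector and ISL1 arrays moved in opposite directions from 0 to 48 h in every array for Isl1, the gene that chose the arrays, and for 8 of 14 genes near Mdm2 (57.1%), a list drawn up with earlier results of these data known. Over all genes the same held for 1419 of 19938 (7.12%). The difference between the groups was not tested for any of them. Each pair of values is the log2 change in the arrays labelled vector and then in those labelled ISL1. Isl1 changed by 5.42 and -4.97. Rab3ip changed by -2.92 and 2.24, and Yeats4, a chromatin reader, by -2.30 and 1.90. Mdm1 changed by -2.04 and 1.51, and the nuclear pore subunit Nup107 by -1.95 and 1.64. Cpsf6, of mRNA 3' end processing, changed by -1.50 and 1.33, the GTPase Rap1b by -1.45 and 1.03 and the chaperonin subunit Cct2 by -0.72 and 1.39. Slc35e3, a transporter-family gene, went the other way, by 0.51 and -0.20.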

How the results depend on the processing

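The total of 8248 genes stayed within 1.5 times under every alternative run: 7487 in a fit of the 6 arrays alone, 8872 with each array centred on its median (59.4% of calls higher, against 51.5%), 8984 after quantile normalization, 8231 with a filter on low values, 8263 with probe sets averaged, 8290 with a trended robust fit, 9089 with array weights and 6762 at a threshold of 0.01. Leaving out 1 array gave 7541 to 7959. Counts at 2-fold or more ran from 467 to 571 higher and 707 to 793 lower, and the median of all genes from 0.01 to 0.10. With the replicate number as a block, 8224 genes passed; same-numbered arrays correlated at 0.134, -0.025 and 0.04 in their deviations, so the numbers were not taken to pair the arrays. Of the 287 named genes with a test, none changed direction under these alternatives, and at most 8 lost their call under any 1 of them. With the high-Isl1 arrays put in place of the low-Isl1 arrays, an exchange of samples and not a setting of the processing, 7342 genes passed, 426 at least 2-fold higher and 568 lower. Of the named genes, 235 kept their call and direction or stayed without a call, and 23 lost the call with the same sign. The other 29 changed sign, whether or not they passed the test after the exchange: Adipoq -3.53, Agpat2 -0.03, Aurka -0.11, Bambi -0.46, Birc5 -0.23, Ccne2 -0.24, Cd36 -0.17, Cdc45 -0.17, Cidec -0.68, Col6a3 -0.01, Cpt1a 0.40, Cyp51 -0.22, Dgat2 -0.42, Dnajb9 -0.03, Hoxd3 -0.16, Id1 -0.24, Id2 0.04, Il33 0.09, Incenp -0.41, Mcm7 -0.04, Nup107 -1.95, Pbk -0.10, Plin1 -0.85, Rrm2 -0.47, Shmt2 -0.20, Slc2a4 -0.27, Srebf2 0.12, Trim30a 0.28 and Trp53inp1 -0.32. Some of them passed, such as Cidec (limma adjusted p = 7.25e-06), and others did not, such as Col6a3 (limma adjusted p = 0.956). Adipoq had no call before the exchange. Small list counts moved with single arrays: lower oxidative phosphorylation genes from 1 to 0, where Ndufs4 lost its call, and higher epithelial markers from 3 to 1.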
